A study of Homo sapiens with 9 samples.

Results

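Aminoacyl-tRNA synthetases are the enzymes that join each amino acid to its transfer RNA (tRNA). The 36 genes described here encode them: 20 for the cytosolic enzymes, and 16, whose symbols end in 2, for enzymes of the mitochondrion. They were picked out of the table by their symbols, and all 36 were found among the 23621 gene rows of the deposited table and among the 12301 genes that were tested. The RNA came from MOLT4, a human cell line established from a T-cell acute lymphoblastic leukemia, after 6 h of treatment, with 3 libraries in each of 3 groups. The controls received vehicle (0.1% DMSO), and the treated groups are titled sunitinib, a kinase inhibitor, and MI-389, a phthalimide conjugate. According to the series title, degraders of this kind have an off-target, GSPT1, which acts in translation termination. The labels of the treated libraries conflict: those titled MI-389 carry a source field naming sunitinib at 1 µM, and those titled sunitinib one naming MI-389 at 0.1 µM. Groups follow the titles, which the column names share. If the source field is right, each statement on one compound belongs to the other. The doses stand only in that crossed field, differ, and were not matched.

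Synthetases supply the ribosome with charged tRNA, and most amino acids have separate nuclear genes for the cytosolic and the mitochondrial enzyme. Glycine and lysine are exceptions, since GARS and KARS each encode both forms, and glutaminyl-tRNA is made in mitochondria by an amidotransferase instead of a synthetase. When the kinases of the integrated stress response phosphorylate eIF2alpha, the transcription factor ATF4 is translated and induces genes of amino acid supply, among which several cytosolic synthetases are known targets. ATF4 acts with C/EBP proteins on a sequence called the C/EBP-ATF response element.

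Values are FPKM, fragments per length of transcript and per sequenced total, normalized further by the authors. The total read counts behind them are unknown. A gene is called changed, or said to rise or fall, where limma gave a Benjamini-Hochberg adjusted p of at most 0.05 over the 12301 genes whose mean reached 1 FPKM. Each log2 difference is one of log2(FPKM + 1), given ± its standard error, and each fold change is a ratio of mean FPKM. Nothing in the labels ties the replicates to separate cultures, so the p-values reflect the spread between these libraries, which may be technical. The T-lineage markers CD3D, CD3E, CD3G, CD5, CD7, LCK, PTCRA, RAG1 and TAL1 lay between 9.56 and 2254 FPKM in every library, and of 9 markers of B cells, myeloid cells, epithelium and fibroblasts, 7 were below the limit for testing, with at most 0.736 FPKM in any library; CD79A stood between 6.17 and 9.54 and KRT8 between 1.28 and 2.21 FPKM. Of the markers, TAL1 was 2.89-fold lower than in DMSO in the libraries titled MI-389 and 1.36-fold lower in those titled sunitinib. In the former CD3D and CD7 were also called lower (1.26-fold and 1.31-fold) and CD3G, CD5 and RAG1 higher (1.15-fold, 1.19-fold and 1.20-fold), and in the latter RAG1 was called higher (1.51-fold) and CD79A lower (1.36-fold); their part in the results was not tested. One control library stood apart for the cytosolic genes: DMSO replicate 1 was the lowest of the 3 controls for 20 of 20 cytosolic members, 10 of 16 mitochondrial members and 61.1% of all tested genes. Its part in the differences was examined by leaving it out.

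With vehicle alone the cytosolic genes were expressed well above the mitochondrial ones. The median over the 20 cytosolic genes was 126, 143 and 149 FPKM in the 3 DMSO libraries, while that over the 16 mitochondrial genes was 27.1, 27.4 and 30.3 FPKM. KARS, the lysyl enzyme of both compartments, was the highest of the cytosolic genes, at 341, 401 and 421 FPKM, and CARS, the cysteinyl enzyme, was the lowest, at 32.3, 34.0 and 38.7 FPKM. Among mitochondrial genes the isoleucyl enzyme IARS2 (93.7, 98.3 and 109.6 FPKM) and the cysteinyl enzyme CARS2 (72.9, 76.5 and 84.8 FPKM) were highest, and PARS2, the prolyl enzyme, was lowest (8.01, 7.98 and 9.57 FPKM). Cysteine was the only amino acid of the 17 pairings of a cytosolic with a mitochondrial gene in which the mitochondrial messenger was the more abundant one in DMSO.

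In the libraries titled MI-389, 13 of the 20 cytosolic synthetase genes rose and 2 fell, while 5 of the 16 mitochondrial genes rose and 3 fell. The rises of the cytosolic genes reached 4.76-fold for CARS, and 9 of them were at least 1.5-fold. No mitochondrial gene rose 1.5-fold; the largest rise was 1.30-fold. The median log2 difference from DMSO was 0.37 for the cytosolic genes, 0.067 for the mitochondrial genes and −0.0021 for all tested genes. The mitochondrial median was −0.011 with each library centred on its median, 0.0022 with quantile normalization and 0.010 with cyclic loess. It was 0.032 without DMSO replicate 1 or without replicate 3 of the group titled MI-389, 0.10 without DMSO replicate 3 and 0.11 without replicate 2 of the group titled MI-389. Of all tested genes 56.7% were called, 28.5% higher and 28.3% lower, against 65.0% and 10.0% of the cytosolic genes and 31.3% and 18.8% of the mitochondrial genes. The groups did not overlap for 14 cytosolic genes on the higher side and 1 on the lower, where 30.5% and 29.7% of all tested genes did not. With each library centred on its median the cytosolic counts were 14 higher and 5 lower, and those over all genes 3222 and 4956 in place of 3502 and 3477.

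CARS, the cytosolic cysteinyl-tRNA synthetase, had the largest change. It stood at 32.3, 34.0 and 38.7 FPKM in the DMSO libraries, 168, 165 and 167 in those titled MI-389 and 53.3, 47.9 and 48.0 in those titled sunitinib. The lowest MI-389-titled library was above every other library, and the difference from DMSO was 2.22 ± 0.071 on the log2 scale (limma, adjusted p = 4.01e-08). GARS, the glycyl enzyme of both compartments, stood at 147, 169 and 167 FPKM in DMSO and 484, 454 and 482 in the libraries titled MI-389. That is a 2.94-fold rise without overlap (log2 1.55 ± 0.062, adjusted p = 1.23e-07), and it made GARS the most abundant of the 20 messengers in each of these 3 libraries, where KARS had been in DMSO.

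MARS, the methionyl enzyme, rose 2.35-fold, from 124, 144 and 148 FPKM in DMSO to 334, 313 and 332 in the libraries titled MI-389 (log2 1.23 ± 0.068, adjusted p = 9.23e-07). TARS, which charges threonine, rose 2.26-fold, from 151, 166 and 176 to 373, 364 and 377 FPKM (log2 1.17 ± 0.061, adjusted p = 6.71e-07). AARS, which charges alanine, rose 2.20-fold, from 124, 152 and 152 to 323, 301 and 318 FPKM (log2 1.14 ± 0.077, adjusted p = 3.14e-06). In these 3 genes too every MI-389-titled library was above every DMSO library.

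A further 4 cytosolic genes rose at least 1.5-fold. YARS, the tyrosyl enzyme, rose 2.05-fold, from 113, 136 and 131 to 262, 252 and 261 FPKM, and IARS, the isoleucyl enzyme, rose 1.56-fold, from 136, 153 and 155 to 237, 223 and 233 FPKM. SARS, the seryl enzyme, rose 1.78-fold to 287 ± 15.7 FPKM (SD, n = 3) and NARS, the asparaginyl enzyme, 1.75-fold to 219 ± 6.19 FPKM. None of these 4 overlapped the controls. Smaller rises were called for EPRS, a single protein that charges glutamate and proline (1.40-fold), for the leucyl enzyme LARS (1.21-fold), the valyl enzyme VARS (1.16-fold, adjusted p = 0.028 by limma) and the arginyl enzyme RARS (1.13-fold, adjusted p = 0.0233).

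The falls were small, and in bulk RNA fewer cells with a messenger and less of it in each cell cannot be told apart. HARS, the histidyl enzyme, stood at 85.9, 93.8 and 99.2 FPKM in DMSO and 77.8, 71.0 and 80.9 in the libraries titled MI-389, 1.21-fold lower without overlap (log2 −0.28 ± 0.067, adjusted p = 0.0057 by limma). FARSA, the alpha subunit of the phenylalanyl enzyme, stood at 252, 305 and 311 FPKM in DMSO and at 257, 245 and 238 in the libraries titled MI-389, 1.17-fold lower (log2 −0.22 ± 0.078, adjusted p = 0.0341), and its groups overlapped because of DMSO replicate 1. FARSB, the beta subunit of the same enzyme, was not called, at −0.046 (95% interval −0.18 to 0.086). Also not called were WARS (tryptophanyl), at 0.18 (0.013 to 0.35), KARS, at −0.15 (−0.31 to 0.021), and QARS (glutaminyl), at −0.17 (−0.35 to 0.005).

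**Figure D1:**
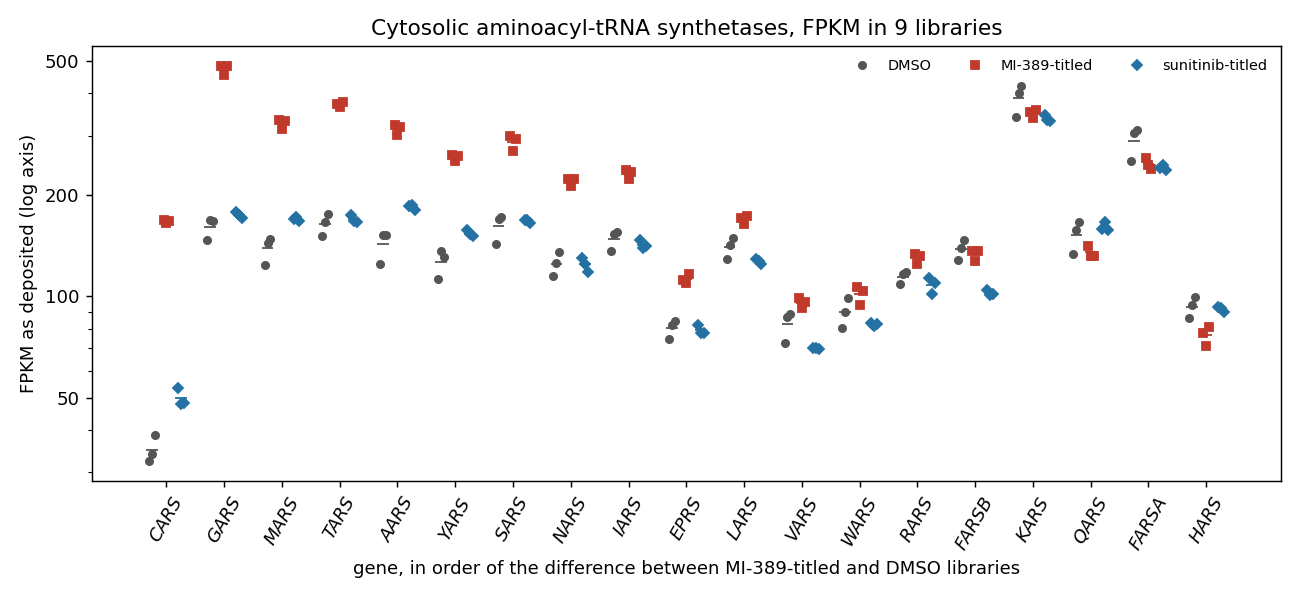
FPKM (log axis) of 19 of the 20 cytosolic synthetase genes in the 9 libraries; each point is a library, each short line a group mean, and genes are ordered by the difference between MI-389-titled and DMSO libraries. From CARS to IARS on the left the 3 MI-389-titled libraries lie well above both other groups, while from FARSB on the right they do not lie above DMSO.

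Across the 17 alternative settings and omissions of a library, 11 of the 13 rises were called each time; RARS was called in 15 and VARS in 13. The number of cytosolic falls was unstable. FARSA kept its call in 8 of 17 and stood at 0.031 after cyclic loess, KARS and FARSB were called higher after quantile normalization (0.095 and 0.079) and cyclic loess (0.14 and 0.10), and 13 rises and 4 falls were called without DMSO replicate 1 but 1 fall without DMSO replicate 2, DMSO replicate 3, or replicate 2 or 3 of the group titled MI-389.

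Synthetases fall into a pair of unrelated structural classes, whose counts stand here beside the 28.5% of all tested genes called higher and 28.3% called lower. Of 9 cytosolic genes of class I alone, 7 rose and none fell by limma, with a median log2 difference of 0.27, and of 10 of class II, 5 rose and 2 fell, with a median of 0.48. At an unadjusted p under 0.05, the class I genes lower in these libraries numbered 0. Several cytosolic synthetases are held together in a multisynthetase complex. Of its 8 members among these genes, EPRS, IARS, LARS, MARS, QARS, RARS and KARS among them, 5 rose and none was called lower, with a median of 0.23, and of the 12 outside it 8 rose and 2 fell, with a median of 0.82. Within the complex MARS alone rose 2-fold or more, and outside it CARS, GARS, TARS, AARS and YARS did.

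The sequences around the transcription start bear on the C/EBP-ATF response element, whose core reads TGATGNAA, where N is any base. These letters were searched on both strands of RefSeq windows (build GRCh38.p14) that reach from 250 bases before to 50 bases after a gene's start. Windows were found for 16 of the 20 cytosolic genes, LARS, VARS and YARS not among them, and 7 of the 16 held the letters, against 4.46% of the 27305 genes in the RefSeq table and 2.54% of the tested genes with a window. The 7 matches are shown because they belong to CARS, GARS, MARS, TARS, AARS, NARS and IARS, and the matched site in ASNS, the asparagine synthetase gene with a known element of this kind, is shown beside them. Each line gives 40 bases before the match and 8 after it, 5′ to 3′ on the gene's strand, with the match in capitals; TTGCATCA and TTTCATCA are the letters as read from the other strand.

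CARS, chr11:3057410-3057465 (-): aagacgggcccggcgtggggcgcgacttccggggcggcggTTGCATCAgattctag
GARS, chr7:30594805-30594860 (+): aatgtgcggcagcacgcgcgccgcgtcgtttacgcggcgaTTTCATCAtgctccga
MARS, chr12:57488024-57488079 (+): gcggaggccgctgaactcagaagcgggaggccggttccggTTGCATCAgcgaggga
TARS, chr5:33440927-33440982 (+): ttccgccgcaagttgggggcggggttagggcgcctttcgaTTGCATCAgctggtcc
AARS, chr16:70289678-70289733 (-): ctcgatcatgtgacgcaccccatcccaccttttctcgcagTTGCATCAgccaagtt
NARS, chr18:57621807-57621862 (-): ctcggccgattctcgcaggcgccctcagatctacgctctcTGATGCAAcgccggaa
IARS, chr9:92293695-92293750 (-): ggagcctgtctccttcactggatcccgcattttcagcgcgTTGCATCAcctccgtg
ASNS, chr7:97872461-97872516 (-): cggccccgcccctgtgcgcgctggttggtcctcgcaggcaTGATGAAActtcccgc

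The match lay within 40 bases of a RefSeq start in CARS, GARS, MARS, TARS, NARS and IARS, and 187 bases before it in AARS. In 6 of the 7 synthetase genes it was the same 8 letters, TTGCATCA on one strand or TGATGCAA on the other, and in GARS it was TTTCATCA, which is the match of ASNS read from the other strand. The log2 differences of the 7 genes in the libraries titled MI-389 ran from 0.64 to 2.22 (median 1.17), and those of the 9 cytosolic genes whose windows lacked the letters from −0.28 to 0.83 (median −0.046). SARS, which rose 1.78-fold, was the highest of the latter. Of 14 mitochondrial genes with a window, YARS2 alone held a match (TGATGGAA), and YARS2 fell. Of all 243 tested genes whose windows held the letters, 38.3% were called higher and 23.5% lower, with a median of 0.064, and of the 9312 whose windows did not, 29.2% and 29.5% were, with a median of −0.0022. A match of letters does not show that a factor was bound there. The members and the letters were chosen with earlier results of these data known, so the split by letters is a description, and a role of the element was not tested.

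The mitochondrial genes moved less than the cytosolic ones and in both directions. Rises were called for 31.3% of them and falls for 18.8%, against 28.5% and 28.3% of all tested genes. The share of rises was thus near that of all genes. The groups did not overlap for 4 of the 16 on the higher side and 3 on the lower, where 30.5% and 29.7% of all tested genes did not. FARS2, the phenylalanyl enzyme, stood at 17.5, 18.6 and 18.6 FPKM in DMSO and 27.6, 20.9 and 22.6 in the libraries titled MI-389, 1.30-fold higher (log2 0.35 ± 0.09, adjusted p = 0.00776 by limma). WARS2, the tryptophanyl enzyme, rose 1.27-fold, from 12.3, 11.1 and 11.1 to 14.8, 13.7 and 15.4 FPKM, and TARS2, the threonyl enzyme, rose 1.24-fold, from 25.4, 27.3 and 28.5 to 35.9, 32.0 and 32.7 FPKM. In these 3 genes no MI-389-titled library overlapped the controls. PARS2, the prolyl enzyme, rose 1.24-fold from 8.01, 7.98 and 9.57 to 11.4, 9.35 and 10.9 FPKM with overlap, and SARS2, the seryl enzyme, 1.17-fold from 30.7, 32.7 and 36.6 to 37.8, 39.8 and 38.9 FPKM without it.

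The 3 falls were larger in log2 size than any of the mitochondrial rises, and none of them overlapped. IARS2, the most abundant mitochondrial synthetase messenger, fell 1.45-fold, from 93.7, 98.3 and 109.6 to 70.5, 67.3 and 70.4 FPKM (log2 −0.53 ± 0.066, adjusted p = 0.000121). CARS2 fell 1.40-fold, from 72.9, 76.5 and 84.8 to 54.7, 54.2 and 58.6 FPKM (log2 −0.47 ± 0.062, adjusted p = 0.000154). YARS2, the tyrosyl enzyme, fell 1.36-fold, from 29.5, 28.95 and 32.8 to 22.4, 23.1 and 21.6 FPKM (log2 −0.43 ± 0.067, adjusted p = 0.000487). These falls, and the rises of FARS2 and TARS2, were called in all 17 alternatives, whereas WARS2 was called in 12 and PARS2 and SARS2 in 11 each. The 5 rises became 3 without DMSO replicate 1 and 2 without DMSO replicate 2 or without replicate 3 of the group titled MI-389, and the 3 falls became 5 without DMSO replicate 1.

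The 8 mitochondrial genes not called were AARS2, EARS2, HARS2, LARS2, MARS2, NARS2, RARS2 and VARS2, with log2 differences between −0.17 (EARS2, the glutamyl enzyme) and 0.16 (MARS2, the methionyl enzyme). For AARS2, the alanyl enzyme, the 95% interval was −0.15 to 0.16, so a rise of the size seen for its cytosolic counterpart AARS lay outside it.

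**Figure D2:**
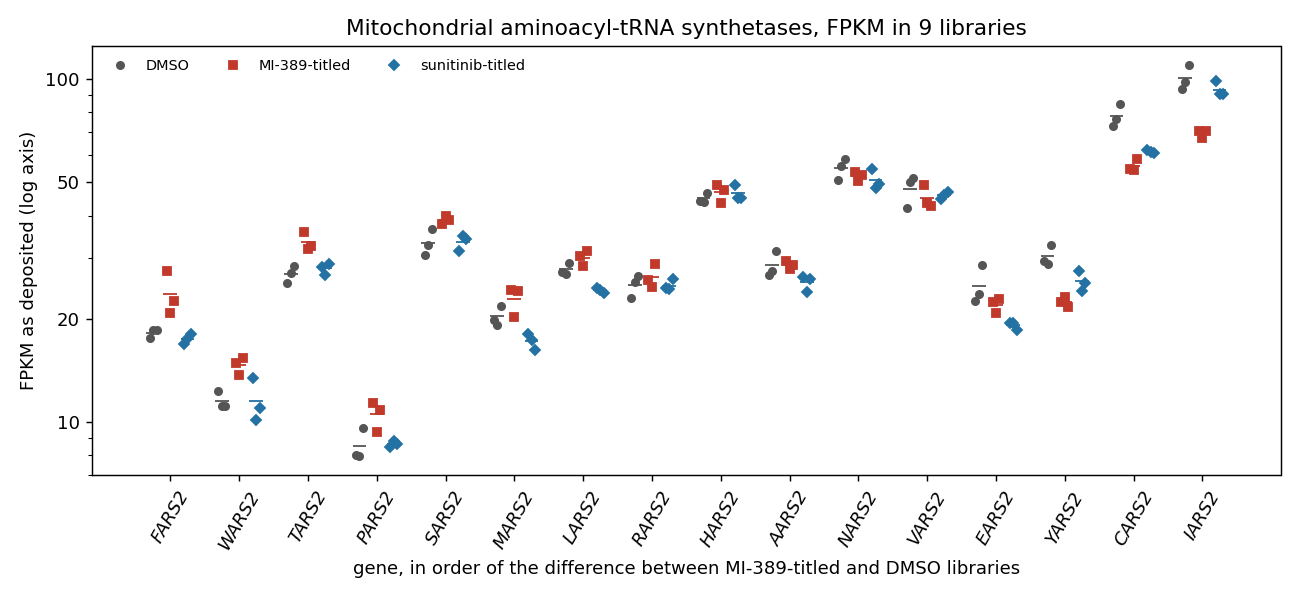
FPKM (log axis) of the 16 mitochondrial synthetase genes in the 9 libraries; each point is a library and each short line a group mean, in the order of the difference between MI-389-titled and DMSO libraries. Most groups overlap or nearly touch, and IARS2, CARS2 and YARS2 on the right have their 3 MI-389-titled libraries below all 3 DMSO libraries.

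Set side by side by amino acid, the paired genes often parted. In the libraries titled MI-389 the ratio of cytosolic to mitochondrial FPKM was above every DMSO library for 11 of 17 pairings, below every one for 3 and overlapping for 3, with a median change of 0.61 on the log2 scale. Groups did not overlap for 60.2% of all single genes tested, but a ratio of paired genes is another measure, for which no such share was computed. EPRS and FARS2 recur among the pairings, so the pairings are not independent. In 3 pairs the cytosolic gene rose while the mitochondrial gene fell, and these were cysteine, isoleucine and tyrosine.

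For cysteine the log2 ratio of CARS to CARS2 was −1.17, −1.17 and −1.13 in DMSO, 1.62, 1.60 and 1.51 in the libraries titled MI-389 and −0.22, −0.36 and −0.34 in those titled sunitinib. The ratio of mean FPKM went from 0.449 in DMSO to 2.98 in the libraries titled MI-389, so the more abundant messenger changed from the mitochondrial to the cytosolic one. For tyrosine the log2 ratio of YARS to YARS2 was 1.93, 2.23 and 2.001 in DMSO and 3.55, 3.45 and 3.597 in the libraries titled MI-389. For isoleucine that of IARS to IARS2 was 0.54, 0.64 and 0.50 in DMSO and 1.75, 1.73 and 1.73 in the libraries titled MI-389. CARS2 and YARS2 also fell in the libraries titled sunitinib, where CARS and YARS rose. There CARS and CARS2 were called in all 17 alternatives, but YARS in 12 and YARS2 in only 5.

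Phenylalanine went the other way. FARSA fell and FARS2 rose, and the log2 ratio of FARSA to FARS2 changed from 3.84, 4.03 and 4.07 to 3.22, 3.56 and 3.40; the fall of FARSA is the call that 9 of 17 alternatives did not give. The ratio of FARSB to FARS2 was lower as well, by 0.41 on the log2 scale as means. For arginine, tryptophan and the pairing of EPRS with PARS2 the ratios overlapped between the groups.

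HARS and HARS2 are neighbours that are transcribed in opposite directions. A stretch of 84 bases lies between their RefSeq starts. It is shown because it belongs to the promoter windows of both genes, and it reads as follows on the plus strand of GRCh38.p14.

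HARS and HARS2, chr5:140691371-140691454 (+): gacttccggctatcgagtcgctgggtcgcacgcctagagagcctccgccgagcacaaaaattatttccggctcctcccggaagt

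The TGATGNAA letters were found in neither gene's window. HARS fell in the libraries titled MI-389, while HARS2 stood at 49.2, 43.6 and 47.5 FPKM against 44.0, 43.9 and 46.7 in DMSO and was not called (log2 0.058, 95% interval −0.078 to 0.19). The log2 ratio of HARS to HARS2 was 0.96, 1.096 and 1.09 in DMSO and 0.66, 0.70 and 0.77 in the libraries titled MI-389, without overlap. Because strand is not marked by this kit, reads from any overlap of these genes could enter either row.

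**Figure D3:**
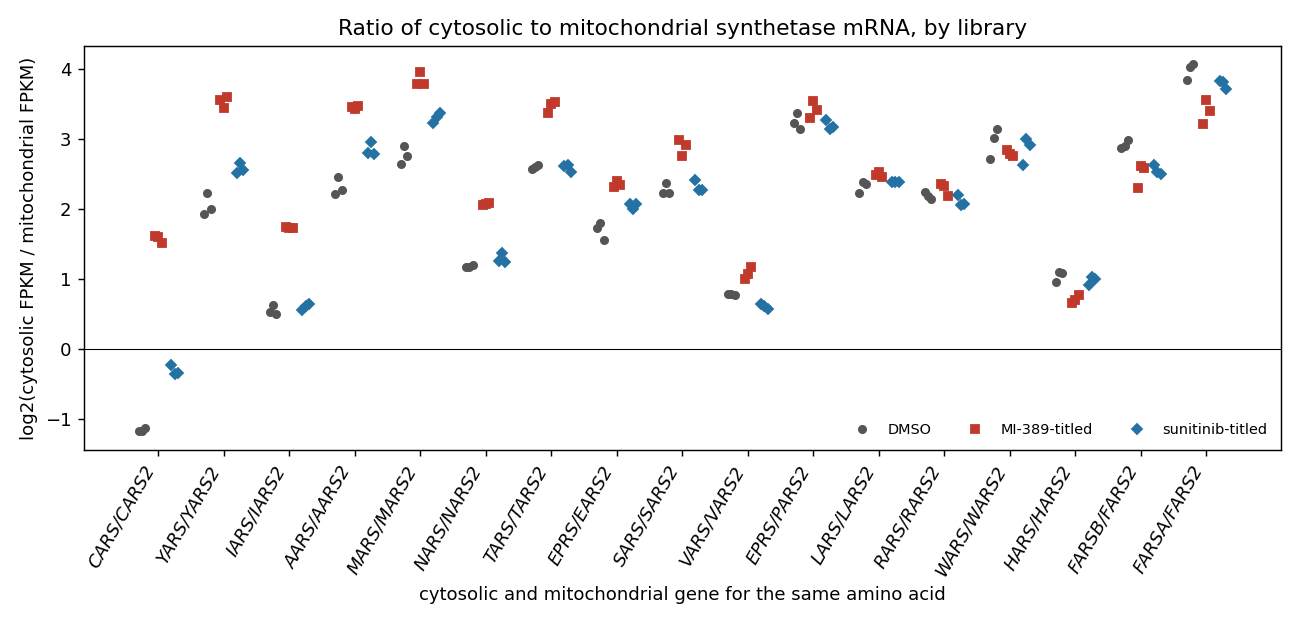
Log2 ratio of cytosolic to mitochondrial FPKM for the 17 pairings of genes that charge the same amino acid; each point is a library, and pairings are ordered by the change between DMSO and MI-389-titled libraries. CARS/CARS2 on the left crosses 0 in the MI-389-titled libraries only, and FARSA/FARS2 on the right lies lower there than in DMSO.

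In the libraries titled sunitinib every called change of a synthetase gene was below 1.5-fold. Of the 20 cytosolic genes 4 rose and 3 fell (20% and 15%). Of the 16 mitochondrial genes none rose and 4 fell (0% and 25%). Of all tested genes 19.3% were called, 2.37% higher and 16.9% lower. The share of cytosolic rises was above that of all genes, and the lack of mitochondrial rises was near it. The medians were −0.020 for cytosolic genes, −0.082 for mitochondrial genes and −0.095 for all genes. Without DMSO replicate 1 these medians were −0.074, −0.15 and −0.13, and without DMSO replicate 3 they were 0.022, −0.044 and −0.048, so the cytosolic one changed sign. The cytosolic median was −0.0079 on leaving out DMSO replicate 2. In the group titled sunitinib, leaving out replicate 1 gave a cytosolic median of −0.043 and a mitochondrial one of −0.13, and leaving out replicate 3 gave a cytosolic median of −0.0064. At an unadjusted p under 0.05, 0 mitochondrial genes were higher by limma. The groups did not overlap for 5 cytosolic genes on the higher and 4 on the lower side and for 6 mitochondrial genes on the lower side, where 35.2% of all tested genes did not, 5.89% higher and 29.3% lower.

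The cytosolic rises were CARS, AARS, MARS and YARS. CARS, at 53.3, 47.9 and 48.0 FPKM, was 1.42-fold above DMSO (log2 0.50 ± 0.071, adjusted p = 0.00311 by limma). AARS stood at 185, 187 and 180.1 FPKM, 1.29-fold above DMSO, MARS at 169, 172 and 168, 1.22-fold, and YARS at 157, 153 and 151, 1.21-fold. In all 4 the 3 libraries lay above every control, and in all 4 they lay below every library titled MI-389. The other genes that rose at least 1.5-fold in the group titled MI-389 were not called here. GARS had a log2 difference of 0.12 (95% interval −0.021 to 0.26), and its 3 libraries, at 178, 174 and 171 FPKM, lay above every control. The log2 difference of TARS was 0.046 (−0.09 to 0.18), of SARS 0.057 (−0.11 to 0.22), of NARS −0.0061 (−0.16 to 0.14) and of IARS −0.055 (−0.19 to 0.079). Both comparisons use the same DMSO libraries, so these values are not independent.

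Of the cytosolic falls, FARSB was the largest, from 128, 139 and 146 FPKM in DMSO to 105, 101 and 102 (1.34-fold lower, log2 −0.42 ± 0.059, adjusted p = 0.00302). FARSA, its partner subunit, also fell and stood at 239.9, 246 and 237 FPKM (1.20-fold lower, adjusted p = 0.0482 by limma). Both were without overlap. The mitochondrial falls were EARS2, from 22.6, 23.7 and 28.7 to 19.4, 19.4 and 18.5 FPKM (1.31-fold), CARS2, to 62.0, 61.3 and 60.8 (1.27-fold), YARS2, to 27.6, 24.1 and 25.4 (1.18-fold), and LARS2, the leucyl enzyme, from 27.4, 27.1 and 29.2 to 24.6, 24.3 and 23.8 FPKM (1.15-fold). None of these 4 overlapped the controls. The ratio of cytosolic to mitochondrial FPKM was above every DMSO library for 6 of the 17 pairings, below every one for 3 and overlapping for 8, with a median change of 0.046. Groups did not overlap for 35.2% of all single genes tested, and no such share was computed for ratios.

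CARS, FARSB and CARS2 kept their calls in all 17 alternatives, and AARS in 16. MARS and EARS2 were called in 13 of them, YARS in 12, FARSA in 6, and LARS2 and YARS2 in 5 each. The counts did not hold: 11 cytosolic genes were called higher after quantile normalization and 12 after cyclic loess, where EPRS, HARS and NARS turned from below to above 0. Over all genes 291 higher and 2079 lower calls became 1270 and 1866 with median centring, 1696 and 1981 with quantile normalization and 1852 and 1962 with cyclic loess. The 3 cytosolic falls became 8 without DMSO replicate 1 and 1 on omission of any other of the compared libraries, the 4 mitochondrial falls became 2 without DMSO replicate 2 or 3 and 1 without replicate 2 or 3 of the group titled sunitinib, and the 4 cytosolic rises became 2, 1 and 2 without replicates 1, 2 and 3 of that group.

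**Figure D4:**
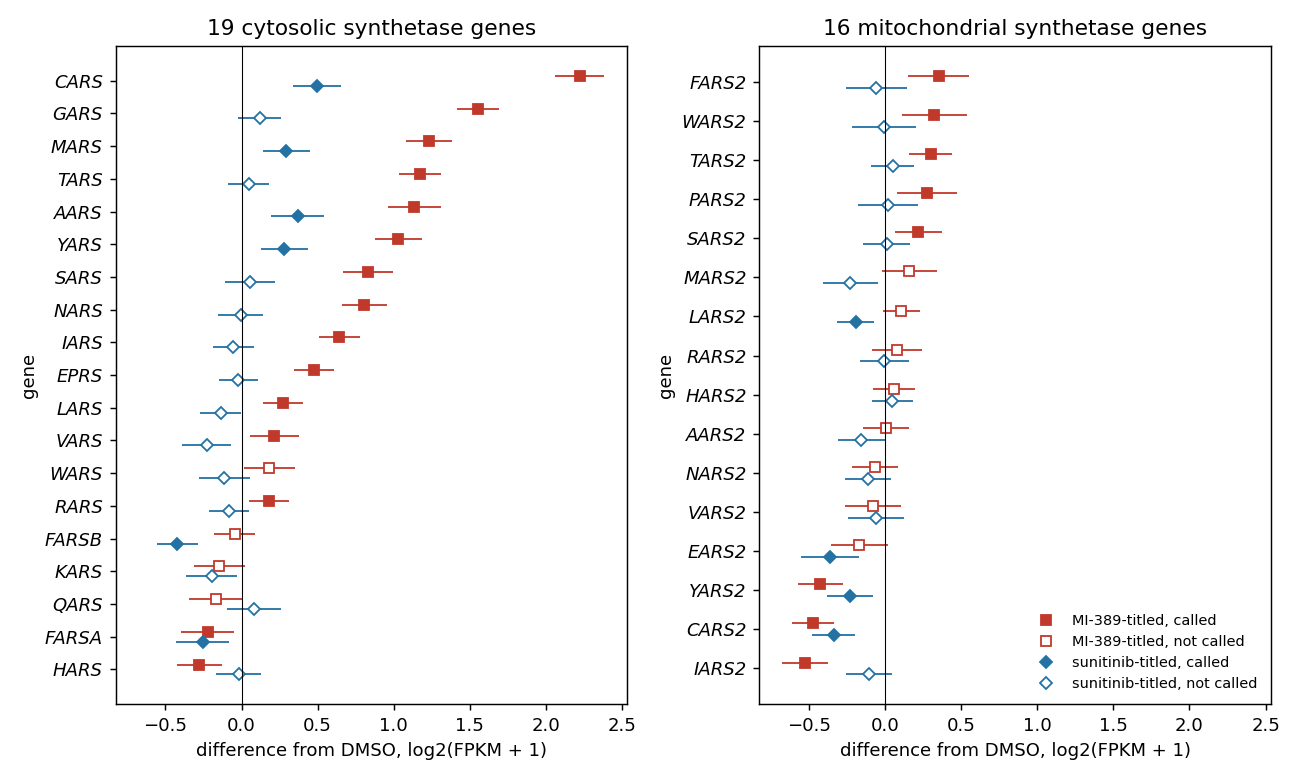
Difference from DMSO on the log2(FPKM + 1) scale with 95% confidence intervals from limma for 19 of the 20 cytosolic (left) and the 16 mitochondrial (right) synthetase genes; filled symbols passed an adjusted p of 0.05. In the MI-389-titled libraries CARS reaches 2.22 and 13 cytosolic genes are called higher, whereas the sunitinib-titled values lie between −0.42 and 0.50.

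Compared directly, 16 of 20 cytosolic genes were higher in the libraries titled MI-389 than in those titled sunitinib and 2 were lower, where 56.3% of all tested genes were called, 36% higher and 20.3% lower. The groups did not overlap for 16 cytosolic genes on the higher and 2 on the lower side and for 9 mitochondrial genes on the higher and 3 on the lower side, where 69.4% of all tested genes did not, 42.5% higher and 27% lower. Doses were not matched, so this is a difference between compound and dose together. CARS was 3.35-fold higher (log2 1.73 ± 0.071, adjusted p = 1.5e-07 by limma), GARS 2.71-fold, TARS 2.19-fold, MARS 1.92-fold, NARS 1.76-fold, SARS and AARS 1.71-fold each, YARS 1.69-fold and IARS 1.63-fold. The lower genes were HARS, at 77.8, 71.0 and 80.9 against 92.6, 92.4 and 89.7 FPKM, and QARS, at 141, 132 and 132 against 159, 166 and 158 FPKM; both were without overlap. FARSA (95% interval −0.14 to 0.21) and KARS (−0.12 to 0.22) were not called.

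Of the mitochondrial genes 7 were higher in the libraries titled MI-389 and 2 lower (43.75% and 12.5%), near the 36% and 20.3% of all tested genes. The higher ones were FARS2 (1.36-fold), MARS2 (1.33-fold), WARS2, LARS2, PARS2, TARS2 and SARS2, the last 1.16-fold. The lower ones were IARS2 (1.34-fold) and YARS2 (1.15-fold). Of the 17 alternatives, PARS2 was called in 8, SARS2 in 9, YARS2 in 10, WARS2 in 11 and TARS2 in 14, and the others in all. CARS2, lower than DMSO in both groups, stood at 54.7, 54.2 and 58.6 FPKM in the libraries titled MI-389 and 62.0, 61.3 and 60.8 in those titled sunitinib and was not called between them (log2 −0.13, 95% interval −0.27 to 0.0042). The ratio of cytosolic to mitochondrial FPKM was above every sunitinib-titled library for 12 of 17 pairings and below every one for 2, HARS to HARS2 and FARSA to FARS2. Of all single genes tested, 69.4% did not overlap between the treated groups, and no such share was computed for ratios. The median over all tested genes moved from 0.081 as deposited to −0.084 with each library centred on its median, and there 3 mitochondrial genes were called higher and 6 lower. Over all genes 4427 higher and 2500 lower calls became 3279 and 4863 with centring, 3791 and 4426 with quantile normalization and 4075 and 4040 with cyclic loess. The cytosolic median was 0.47 as deposited and 0.31 with centring. The number of cytosolic genes called higher was 16 with any 1 of the 6 compared libraries left out. The 7 mitochondrial genes called higher became 4 without replicate 3 of either group, the 2 called lower became 1 without replicate 1 or 3 of either group, and the 2 cytosolic genes called lower became 1 without replicate 2 of either group or replicate 3 of that titled MI-389.

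Genes that work with the synthetases were given beside them. Of 12 partner genes, 5 rose and 3 fell in the libraries titled MI-389 against DMSO (41.7% and 25.0%, against 28.5% and 28.3% of all tested genes), with a median log2 difference of 0.18. XPOT, which exports tRNAs from the nucleus, rose from 95.2, 103 and 110.4 to 175, 168 and 178 FPKM, and AIMP1, a scaffold of the multisynthetase complex, rose 1.47-fold. PSTK and SEPSECS, which convert seryl-tRNA into selenocysteinyl-tRNA, rose 1.94-fold and 1.67-fold. EEF1E1, another scaffold of the complex, fell 1.46-fold, from 143, 155 and 159 to 119, 98.7 and 96.2 FPKM, and AIMP2, a further scaffold, was not called (0.18, 95% interval 0.0036 to 0.37). TARSL2, a threonyl-tRNA synthetase-like gene, and PTRH2, a peptidyl-tRNA hydrolase, fell 1.26-fold and 1.13-fold. Against DMSO, none of the 12 rose and 3 fell in the libraries titled sunitinib by limma, EEF1E1, AIMP2 and PTRH2, and 0 were higher at an unadjusted p under 0.05. The falls were 25.0% of the list, and of all tested genes 2.37% rose and 16.9% fell there, so the lack of rises was near the share of all genes.

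Of 10 genes that complete tRNA charging or modification in mitochondria, 3 rose and 4 fell in the libraries titled MI-389 against DMSO, where 28.5% of all tested genes rose and 28.3% fell, so the share of rises, 30.0%, was near that of all genes. QRSL1, a subunit of the amidotransferase that makes mitochondrial glutaminyl-tRNA, rose 1.41-fold, while its partner subunit GATC fell 1.14-fold and the remaining subunit, listed as PET112, was not called (−0.17). MTO1 and GTPBP3, which act together in modifying the wobble uridine of mitochondrial tRNAs, moved apart: MTO1 went from 26.4, 27.8 and 29.5 to 52.2, 50.1 and 50.8 FPKM, 1.83-fold higher, and GTPBP3 from 46.8, 54.4 and 57.5 to 41.6, 38.0 and 41.1, 1.31-fold lower. TRNT1, which adds the CCA end to tRNAs, rose 1.31-fold, and TUFM, the mitochondrial elongation factor that carries charged tRNA to the ribosome, fell 1.18-fold. In the libraries titled sunitinib none of the 10 rose and 3 fell by limma, TRNT1 and GTPBP3 among them, and 0 were higher at an unadjusted p under 0.05. The falls were 30.0% of this list, while 2.37% of all tested genes rose and 16.9% fell, so the lack of rises was near the share of all genes.

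For reference, the messenger of ATF4 itself stood at 581, 700.2 and 731 FPKM in DMSO, 1214, 1176 and 1215 in the libraries titled MI-389 and 763, 774 and 740.2 in those titled sunitinib, and was called higher in the former (1.79-fold) but not in the latter (log2 0.18, 95% interval 0.0025 to 0.37). Directly, it was 1.58-fold higher in the libraries titled MI-389 than in those titled sunitinib (adjusted p = 0.0001 by limma). ASNS, its target in asparagine synthesis, stood at 18.9, 19.9 and 23.7 FPKM in DMSO, at 86.4, 82.5 and 90.1 in the libraries titled MI-389 and at 27.8, 26.4 and 27.1 in those titled sunitinib, and was called higher in both, 4.14-fold and 1.30-fold.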

How the data were processed

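Per the labels' protocols, polyA RNA of MOLT4 cells received ERCC spike-in RNA by cell number and was sequenced from SMARTer v4 libraries. The submitters' processing notes name HISAT, Cufflinks 2.0.0 and hg19. The deposited values are the authors' FPKM, 1 row per gene symbol, normalized further between libraries by a method not given in the sources used here. Columns were matched to samples by title, none was left unmapped, and no pair of libraries was identical. The 12301 genes whose mean reached 1 FPKM entered limma 3.58.1 (R 4.3.3) as log2(FPKM + 1), with the 9 libraries in 1 model of 3 groups, a variance trend, two-sided p and Benjamini-Hochberg adjustment at 0.05. Members, lists, the searched letters and the tests were chosen with earlier results of these data known. Values in every library are given for the 5 largest called rises and falls of each set against DMSO and for pairs called in opposite directions; partner genes are named by size of change. The model was also run on simulated data with known changes and independent normal noise. In each comparison it called 93 or 94 of 100 changes of 1 on the log2 scale and 77 to 81 of 100 smaller ones. Of its calls there, 1.14% to 5.03% were false. The simulation left all other genes unchanged, whereas 56.7% of all tested genes were called in the libraries titled MI-389 against DMSO. Its shares therefore need not hold for these fits. Promoter windows came from RefSeq (GRCh38.p14), matched by symbol; the bases after the start stood in a GENCODE transcript of the gene for 60 of 63 windows checked. That build differs from the one named for the values, so coordinates are given for the sequences only. Alternatives were pseudocounts of 0.1 and 5, no filter or a minimum of 5 FPKM, centring on medians, quantile normalization, cyclic loess, rescaling to 16 spike-in RNAs, no variance trend, a replicate block, a model of only the 6 libraries compared, and each compared library left out. Counts and medians cover all genes of each list, but some list members are not reported here singly. Figures were drawn with matplotlib 3.10.9.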

Additional observations from a re-analysis of the deposited data

How the results depend on the processing

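Total reads are unknown, so precision rests on 3 libraries a group. Called members kept their call in every alternative for 17 of 23 genes titled MI-389 against DMSO, 3 of 11 titled sunitinib against DMSO and 20 of 27 between treated groups; 6 of 13, 17 of 25 and 8 of 9 uncalled members changed sign at least once.

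Nothing in the labels says whether libraries that share a replicate number were handled together. Deviations of same-numbered libraries correlated between −0.042 and 0.11 and of others between −0.22 and 0.13. With 3 libraries a group, these ranges cannot decide whether the numbers mark a shared batch. With the replicate block, cytosolic rises stayed at 13, 4 and 16 in the 3 comparisons (MI-389 against DMSO, sunitinib against DMSO, MI-389 against sunitinib, as titled); cytosolic falls were 1 in each comparison with DMSO, and mitochondrial falls 2 for sunitinib against DMSO and 1 between treated groups. The causes of the changes below were not tested.

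MI-389 against DMSO: cytosolic falls were 1 with no filter, quantile normalization, cyclic loess or the 6 libraries alone, and 5 with median centring; mitochondrial rises were 3 with no filter and with quantile normalization; mitochondrial falls were 6 with centring and 5 with quantile normalization; the cytosolic median was 0.51 after cyclic loess, and the mitochondrial median turned to −0.011 with centring. FARSA turned to 0.031 after cyclic loess, FARSB to 0.079 and KARS to 0.095 after quantile normalization, and to 0.10 and 0.14 after cyclic loess. With 1 library omitted, cytosolic falls ranged from 1 to 4, mitochondrial rises from 2 to 5 and falls from 3 to 5.

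Sunitinib against DMSO: cytosolic rises were 11 (quantile), 12 (cyclic loess) and 2 (6 libraries alone); cytosolic falls were 1 with no filter, centring, no variance trend or the 6 libraries alone; mitochondrial rises were 2 with centring, quantile normalization and cyclic loess; mitochondrial falls were 1 with no filter and the 6 libraries alone, and 2 with those 3 scalings and spike-in rescaling. The cytosolic median turned to 0.066 with centring, 0.103 with quantile normalization and 0.104 with cyclic loess, and the mitochondrial one to 0.0043 with centring, 0.029 with quantile normalization and 0.023 with cyclic loess. EPRS, HARS and NARS turned to 0.097, 0.11 and 0.12 after quantile normalization, and EPRS, HARS, NARS and IARS to 0.10, 0.10, 0.13 and 0.081 after cyclic loess. With 1 library omitted, cytosolic rises ranged from 1 to 4, falls from 1 to 8, and mitochondrial falls from 1 to 4.

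MI-389 against sunitinib: cytosolic falls were 1 with no filter and the cytosolic median 0.31 with centring; mitochondrial rises were 3 with centring, quantile normalization and cyclic loess; mitochondrial falls were 6 with centring, 5 with quantile normalization and cyclic loess, and 1 with no filter and spike-in rescaling. The mitochondrial median was 0.012 with centring, −0.0093 with quantile normalization and −0.0012 with cyclic loess. HARS2 turned to −0.15, −0.14 and −0.11 under these 3, and NARS2 to −0.12 with centring. With 1 library omitted, cytosolic falls ranged from 1 to 2, mitochondrial rises from 4 to 6 and falls from 1 to 2.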
